A study of Solanum lycopersicum with 36 samples.

Results

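The miR156 and miR157 microRNAs of tomato leaves and the transcripts at which they were found to cut were followed through drought, heat and their combination. Members were taken by name: every small RNA sequence named miR156 or miR157, and every site listed by degradome sequencing under such a name, with 1 transcript left out. The small RNA table held 25 such sequences of 765 in all, on 28 of 869 lines, and the degradome lists held 102 of 865 miRNA and transcript rows, which came to 42 of 576 sites in 33 transcripts. Of the sequences, 14 were given an arm of 5p (the guide side of the hairpin in this family) or no arm and are called guides here, and 11 came from the 3p arm and are called passengers.

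The plants were wild-type seedlings of the cultivar 'Jinlingmeiyu', 24 days old when withholding of water began, and the sample was the first fully expanded leaf. The temperature treatments began 3 days after that. Combination plants had water withheld for 3 days beforehand and were then kept at 38 °C. Heat plants were watered and kept at 38 °C, drought plants had water withheld for 3 days and stayed at 26 °C, and control plants were watered at 26 °C. The treatments ran for 48 h, with leaves for sequencing taken at 36 h, and each had 3 biological replicates for small RNA and 3 for the degradome. Heat and combination are called 38 °C leaves (6 libraries of each kind), and drought and control are called 26 °C leaves (6 libraries of each kind). Replicates were whole-leaf samples, so fewer cells of a type and less RNA per cell cannot be told apart in any value below.

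In plants, miR156 pairs with transcripts of SPL (SQUAMOSA PROMOTER BINDING PROTEIN-LIKE) transcription factors, which carry the SBP DNA-binding domain, and directs their cleavage and translational repression. Its level is known to be high in juvenile shoots and to decline with age, which lets SPL factors rise and promotes the adult phase, flowering and, through miR172, further steps of that change. The miRNA hairpin yields a short duplex, of which the guide enters ARGONAUTE and the passenger is usually degraded, and degradome sequencing reads the 5′ ends of the RNA fragments that cleavage leaves.

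The guides are shown with bases 2 to 8, the seed, in capitals, since the seed groups them and the position of the 5′ end sets where a transcript is cut. The sequence sly-miR156a and its C-start relative share the seed TGACAGA, found in 5 members that held 63.6% of the family's normalized reads. The d-5p guide starts 1 base later and has the seed GACAGAA, found in 3 members that held 4.55% of the reads, and each remaining guide shown has a seed of its own.
sly-miR156a: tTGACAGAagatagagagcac
sly-miR156a_stu (C-start): cTGACAGAagatagagagcac
sly-miR156d-5p: tGACAGAAgagagtgagcac
sly-miR156e-5p: tGATAGAAgagagtgagcac
sly-miR156f-p5_stu: cTGGCAGAagagagtgagca
Counted from 1 at the 5′ end, the C-start sequence differs from sly-miR156a by T1C alone, and sly-miR156e-5p differs from sly-miR156d-5p by C4T, which lies in the seed. After the 1-base offset at the 5′ end, sly-miR156d-5p has the next 10 bases in common with sly-miR156a. A guide directs the cut opposite its bases 10 and 11, so guides that start 1 base apart on a transcript point to cuts 1 base apart.

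The passengers are shown in the same way, because 3 of them that share the seed CTCTCTA are described library by library. That seed occurred in 4 members, which held 28.5% of the reads.
sly-miR156i-p3_nta: gCTCTCTAtgcttctgtcatc
sly-miR157d-3p_aly: gCTCTCTAtgcttccgtcatc
sly-miR156g-p3_nta: gCTCTCTAtgcttccgtcatcc
sly-miR156d-3p: gCTCACTGctctatctgtcacc
sly-miR156e-3p: gCTTACTCtctatctgtcacc
sly-miR156c-3p_ath: gCTCACTTctcattctgtcaga
The first of these differs from sly-miR157d-3p_aly by T15C, and sly-miR156g-p3_nta is the 21 bases of sly-miR157d-3p_aly with 1 base more at the 3′ end. Because the last 2 sequences named are so close, how reads were divided between them depends on the authors' assignment, and their levels carry that uncertainty. By length, 91.3% of the family's reads were 21 nt, 6.16% were 20 nt and 2.35% were 22 nt.

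On the SL3.0 tomato genome, the precursor listed for sly-miR156a and sly-miR156i-p3_nta lies on the minus strand at chr6:42968464-42968580. The precursor listed for the C-start guide and sly-miR157d-3p_aly overlaps it on the same strand, at chr6:42968372-42968509. The d precursor lies at chr8:51977382-51977548 and the e precursor at chr8:52008931-52009035, both on the minus strand. The precursor of sly-miR156f-p5_stu and sly-miR156c-3p_ath lies at chr7:324022-324227 and that of sly-miR156g-p3_nta at chr3:69151228-69151398, both on the plus strand. Whether these places are intergenic, exonic or intronic was not annotated here.

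Values are the authors' normalized reads, on a scale of about 1 factor per library (0.633 to 1.30), at which 84.1 to 88.5% of the low values of a library were whole reads. Divided by that factor, the listed values summed to 850394 to 1698502 per library. The test was limma with a mean-variance trend on log2(normalized reads + 1), over the 419 sequences that reached 10 normalized reads in 3 or more libraries, with Benjamini-Hochberg adjustment over all of them at 0.05. Of the family, 7 guides and 7 passengers passed that filter. The other 7 guides and 4 passengers did not exceed 16.1 normalized reads in any library and are not described further, except for 1 named with its target sites. Fold changes are on the log2(value + 1) scale, which understates changes of low sequences, and the error given with them is a standard error.

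On average the family made up more of the listed miRNA reads at 38 °C, and its makeup moved toward guides. It held 4.32 ± 0.781% of listed reads in combination, 4.29 ± 0.661% in heat, 3.12 ± 0.364% in drought and 3.34 ± 0.278% in control leaves (SD, n = 3 each). Summed over guides this was 35052 ± 9924 normalized reads in combination, 34621 ± 6924 in heat, 21917 ± 2239 in drought and 24655 ± 3396 in control leaves. Both measures overlapped between temperatures. Combination replicate 2, at 3.56% of listed reads, lay below control replicate 1 at 3.60%, and its 27943 guide reads lay below the 28474 of control replicate 2. Passengers were 25.4 ± 1.44% of the family in combination, 27.8 ± 0.280% in heat, 33.5 ± 2.58% in drought and 36.1 ± 5.77% in control leaves. These sums are descriptions and were not tested.

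One passenger, sly-miR156i-p3_nta, held 26.7% of the family's reads and outweighed the other passengers in that sum. Without it, the passengers came to 736 ± 38.0 normalized reads in combination and 865 ± 93.5 in heat leaves, against 1901 ± 276 in drought and 2191 ± 413 in control leaves (SD, n = 3 each). That was 2.22 ± 0.649% of the guide reads in combination, 2.56 ± 0.539% in heat, 8.82 ± 2.20% in drought and 9.14 ± 2.76% in control leaves.

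The main guide, sly-miR156a, made up 63.1% of the family. It had 42308, 25724 and 27806 normalized reads in the 3 combination libraries and 28027, 27520.0 and 38627 in the heat libraries. It had 21342, 17508 and 19648 in drought and 21339, 25428 and 19708 in control libraries. Every 38 °C library lay above every 26 °C library, though the lowest of the 38 °C libraries, combination replicate 2, was close to control replicate 2. The difference between 38 °C and 26 °C was 0.59 ± 0.15 on the log2 scale (limma, Benjamini-Hochberg adjusted p = 0.0154), and without the mean-variance trend the adjusted p was 0.0583. Taken singly, heat against control (0.49, adjusted p = 0.177) and combination against control (0.50, adjusted p = 0.181) did not pass.

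**Figure D1:**
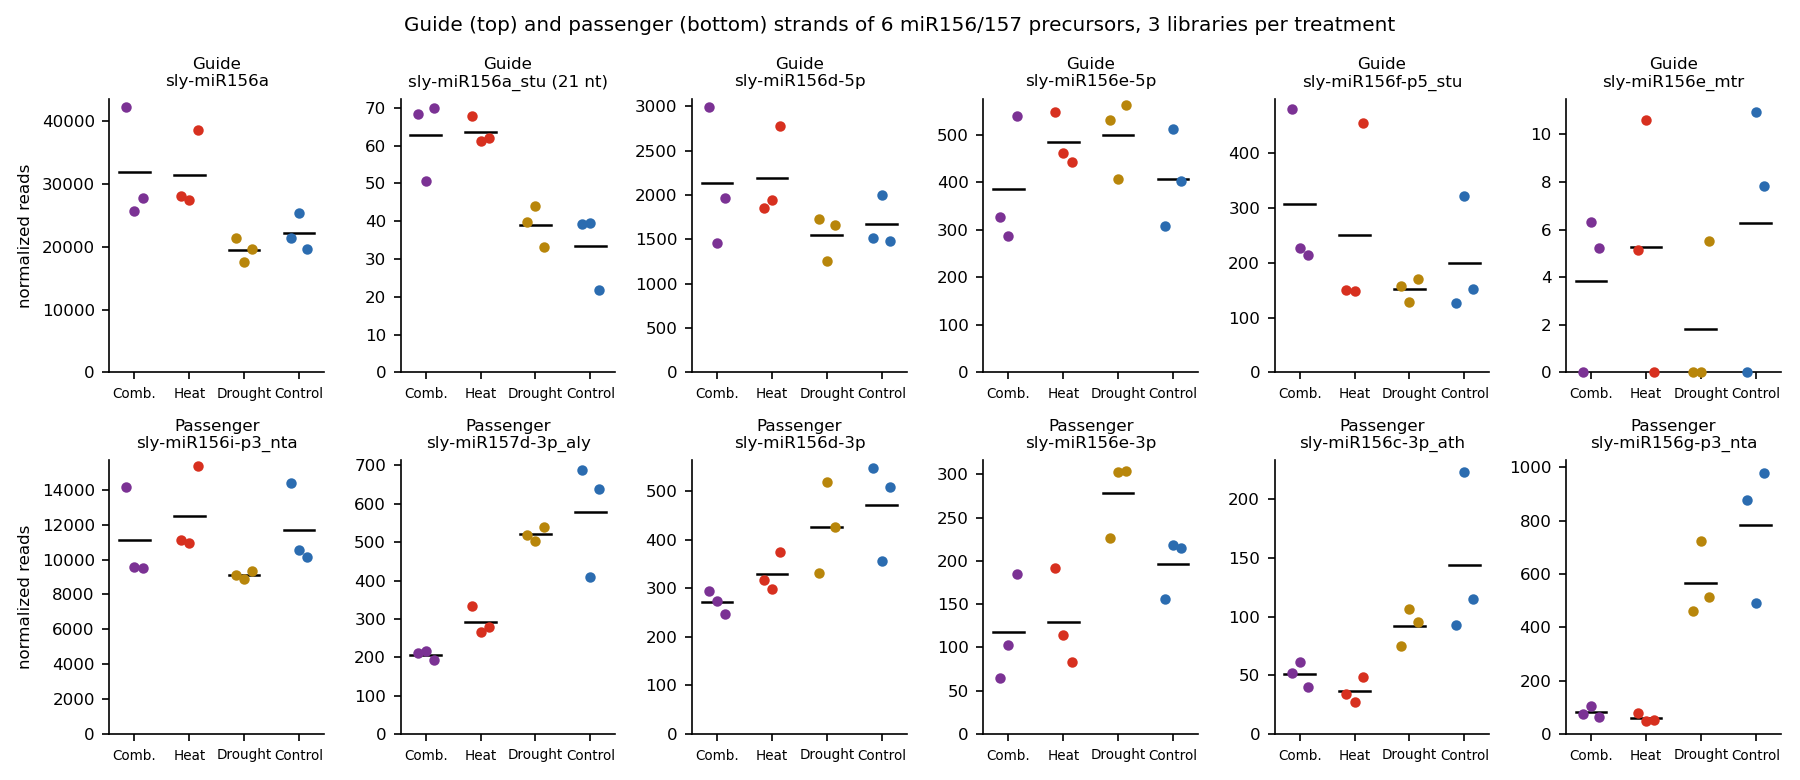
Normalized reads of the guide (upper panels) and passenger (lower panels) of 6 precursors in each small RNA library, by treatment; points are libraries and black lines are means of 3. The 38 °C libraries of sly-miR156a lie at 25724 to 42308, above the 26 °C libraries at 17508 to 25428, while those of sly-miR156g-p3_nta lie at 49.5 to 106, below the 26 °C libraries at 462 to 979.

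The C-start guide was higher at 38 °C as well, at a far lower level. Because it differs from sly-miR156a by T1C alone, altered or misread copies of sly-miR156a cannot be told from it. It had 68.3, 50.6 and 70.0 normalized reads in combination and 67.9, 61.2 and 62.0 in heat libraries, against 39.8, 44.0 and 33.2 in drought and 39.3, 39.6 and 21.8 in control libraries. The 38 °C and 26 °C libraries did not overlap. The 38 °C leaves were higher by 0.81 ± 0.23 (limma, Benjamini-Hochberg adjusted p = 0.0229). That call was lost with no filter on low values and without combination replicate 3, control replicate 3, drought replicate 3 or heat replicate 1, where adjusted p reached 0.0652. Taken singly, heat against control (0.95, adjusted p = 0.0736) and combination against control (0.92, adjusted p = 0.0877) did not pass.

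The other 5 guides tested did not pass between 38 °C and 26 °C. The second most abundant, sly-miR156d-5p, ranged from 1454 to 2998 normalized reads at 38 °C, with a median of 1956, and from 1257 to 2001 at 26 °C, with a median of 1593. These ranges overlapped, and the difference was 0.40 ± 0.19 (limma, Benjamini-Hochberg adjusted p = 0.181). The guide with the altered seed, sly-miR156e-5p, had medians of 452 at 38 °C and 459.6 at 26 °C, with a difference of -0.07 ± 0.19. For sly-miR156f-p5_stu the difference was 0.58 ± 0.34, for the 22-nt sly-miR156a_stu 0.33 ± 0.16, and for the 25-nt sly-miR156c_cca, which has no guide seed of the family, 0.12 ± 0.25.

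Passengers held the calls of the comparisons with control. In heat against control, 3 members passed, all passengers and all lower, where 15.0% of the 419 sequences passed in either direction and 12.6% were lower (limma, Benjamini-Hochberg adjusted p under 0.05, for this and the counts that follow). In combination against control, 4 members passed, again passengers and lower, where 12.6% of all sequences passed and 9.31% were lower. Heat against drought called 3 passengers lower, where 12.9% of all sequences passed and 11.2% were lower, and combination against drought called 3, where 11.9% passed and 7.40% were lower. Between 38 °C and 26 °C, 7 members passed, where 19.3% of all sequences passed, and these were 2 guides that were higher (6.44% of all sequences) and 5 passengers that were lower (12.9%).

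The strongest difference was in sly-miR156g-p3_nta. It had 73.4, 106 and 65.2 normalized reads in combination and 77.4, 49.5 and 52.1 in heat libraries. It had 462, 722 and 512 in drought and 876, 491 and 979 in control libraries. All 38 °C libraries lay far below all 26 °C libraries, with no overlap. The change was -3.66 ± 0.32 in heat against control (limma, Benjamini-Hochberg adjusted p = 2.54e-06), -3.22 ± 0.32 in combination against control (1.98e-05), -3.23 in heat against drought (9.57e-06) and -2.78 in combination against drought (0.000115). It passed in each of these under every alternative that was run.

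Its 21-nt relative sly-miR157d-3p_aly fell less. It had 211, 216 and 193 normalized reads in combination and 334, 266 and 278 in heat libraries, against 519.8, 502 and 541 in drought and 688, 408 and 637 in control libraries. Again the 38 °C and 26 °C libraries did not overlap, and the combination libraries also lay below the heat libraries. The change was -0.95 ± 0.22 in heat against control (limma, Benjamini-Hochberg adjusted p = 0.00843), which became 0.0543 when only these treatments were fitted, and -1.45 ± 0.22 in combination against control (0.000668). In heat against drought it was -0.84 (0.0235), which was lost without drought replicate 1, 2 or 3 or heat replicate 2 or 3 and with no trend, where adjusted p reached 0.089. Combination against heat gave -0.50 with an unadjusted p of 0.0451 and an adjusted p of 0.262, so that step did not pass.

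The passenger sly-miR156c-3p_ath had 51.9, 61.1 and 40.0 normalized reads in combination and 34.4, 27.1 and 48.3 in heat libraries, against 74.9, 106 and 95.1 in drought and 92.5, 223 and 115 in control libraries. These groups of 38 °C and 26 °C libraries did not overlap either, and control replicate 2 was the highest. It changed by -1.88 ± 0.37 in heat against control (limma, Benjamini-Hochberg adjusted p = 0.00237), a call lost only when the sequence was tested alone on unlogged values, and by -1.39 ± 0.37 in combination against control (0.0245), a call lost without combination replicate 3 or control replicate 2 or 3, when only these treatments were fitted and when the sequence was tested alone on unlogged values, where p reached 0.0993. In heat against drought the change was -1.33 (0.03), lost without drought replicate 2 or 3 or heat replicate 1 or 2 and with TMM scaling, where it reached 0.118.

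The passengers of the d and e precursors had smaller changes, which were less stable. For sly-miR156d-3p, combination libraries held 295, 273 and 247 normalized reads, heat 316, 298 and 374, drought 332, 518 and 426, and control 548, 356 and 509, so the 38 °C and 26 °C ranges overlapped slightly. Combination against control gave -0.77 ± 0.23 (limma, Benjamini-Hochberg adjusted p = 0.0489), a call lost in 17 of 22 alternatives, with adjusted p up to 0.194 and all but control replicate 2 and drought replicate 1 deciding it when left out. Next, 38 °C against 26 °C gave -0.56 ± 0.17 (limma, Benjamini-Hochberg adjusted p = 0.0292), lost in 10 of 20 alternatives, up to 0.0818, among them those without control replicate 1 or 3, combination replicate 2 or 3, drought replicate 2 or 3, or heat replicate 1 or 2. For sly-miR156e-3p, combination libraries held 64.5, 102 and 185, heat 192, 114 and 83.1, drought 227, 303 and 304, and control 156, 219 and 215, again with overlap. The 38 °C leaves were lower by 1.01 on the log2 scale, with an error of 0.28 (0.0193), and without drought replicate 3 adjusted p was 0.0512. Its combination against drought call (-1.35, 0.0396) was lost in 11 of 22 alternatives, up to 0.132, among them those without combination replicate 1 or 2, any drought replicate, control replicate 3 or heat replicate 2. The low sly-miR156f-3p_stu, at 0 to 21.0 normalized reads, did not pass.

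The most abundant passenger, sly-miR156i-p3_nta, behaved otherwise. It had 14173, 9589 and 9532 normalized reads in combination and 11138, 10919 and 15358 in heat libraries, against 9121, 8859 and 9319 in drought and 14396, 10549 and 10127 in control libraries. Its 38 °C and 26 °C libraries overlapped. Its drought libraries lay below all of its control, heat and combination libraries, but its comparisons with drought did not pass (limma, Benjamini-Hochberg adjusted p of 0.291 to 0.812). Between 38 °C and 26 °C its difference was 0.18 ± 0.15 (limma, Benjamini-Hochberg adjusted p = 0.477), although it differs from sly-miR157d-3p_aly by T15C alone.

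**Figure D2:**
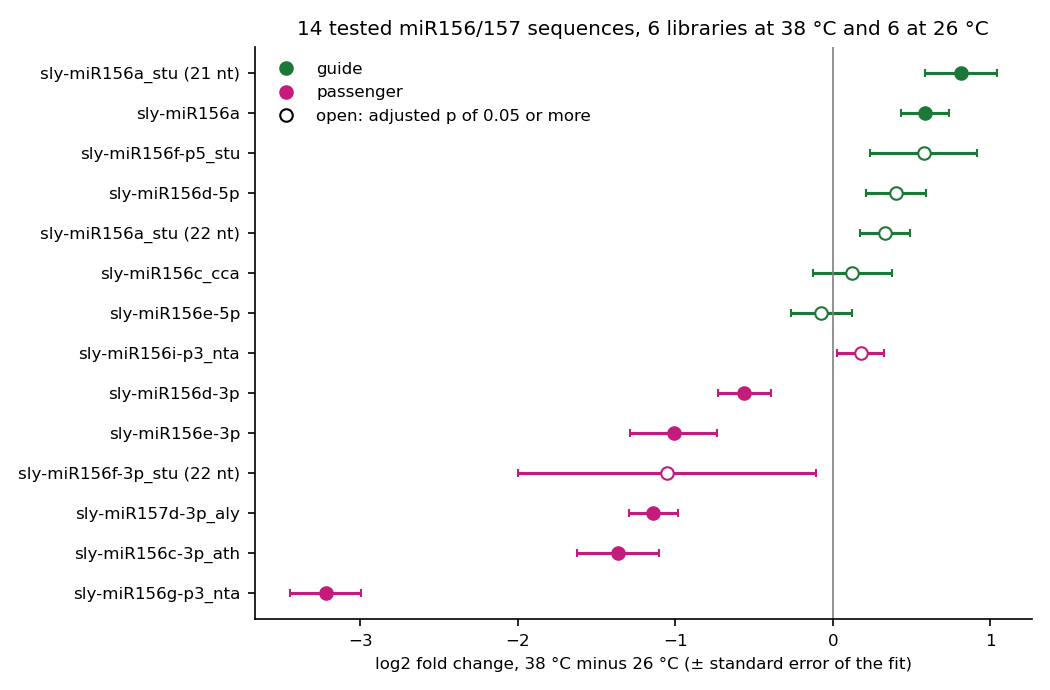
Log2 fold change between 38 °C and 26 °C leaves of the miR156 and miR157 sequences tested, with bars of 1 standard error; filled points passed at an adjusted p under 0.05. Guides lie between -0.07 and 0.81 and passengers between -3.22 and 0.18.

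The unequal change of these 3 near-identical passengers was compared within libraries, where the scaling of a library cancels apart from the 1 added to each value. The log2 ratio of sly-miR156g-p3_nta to sly-miR157d-3p_aly was -1.83 ± 0.56 at 38 °C (range -2.40 to -1.01) and 0.25 ± 0.32 at 26 °C (range -0.17 to 0.62), a difference of -2.08 (SD, n = 6 each; two-sided exact permutation test, p = 0.00216). The log2 ratio of sly-miR157d-3p_aly to sly-miR156i-p3_nta was -5.56 ± 0.35 at 38 °C and -4.24 ± 0.26 at 26 °C, a difference of -1.32 (exact permutation test, p = 0.00216). This p is the smallest that the 924 splits allow, and adjusted over the 3 ratios tested it is again 0.00216. The splits pooled heat with combination and drought with control, so water supply was not taken into account. These ratios were chosen after their values were seen.

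No member passed in drought against control, where no sequence of the 419 did in limma, and 0 members had an unadjusted p under 0.05. The member changes there ran from -0.55 to 1.00. In combination against heat 6.44% of all sequences passed and no member did, with 1 member at an unadjusted p under 0.05. The interaction of water supply and temperature passed for 5.01% of all sequences and for no member, with 0 at an unadjusted p under 0.05.

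Each passenger was then set against the guide listed with it on the same precursor. The pairing is that of the listing. The 22-nt sly-miR156a_stu and the guide listed with sly-miR156g-p3_nta, of other precursors, begin with all bases of sly-miR156a. Reads of sly-miR156a therefore cannot be tied to 1 precursor. Of 8 duplexes in the family, 5 had both strands above the filter, among 89 such duplexes in the table, and the log2 ratio of 3p to 5p reads was fitted over the 89. In some other families, such as miR172, the passenger is the 5p strand, and there a loss of passenger raises this ratio. The shares over the 89 given below are therefore not shares of passengers that fell against their guides. Between 38 °C and 26 °C all 5 fell, where 49.4% of the 89 ratios passed and 21.3% were lower (limma, Benjamini-Hochberg adjusted p under 0.05). In heat against control 3 fell, where 43.8% of the 89 passed and 16.9% were lower, and in combination against control 2 fell, where 24.7% passed and 8.99% were lower. In heat against drought 3 fell (46.1% passed, 18.0% lower), and in combination against drought 3 fell (31.5% passed, 13.5% lower). In drought against control 1.12% passed, in combination against heat 30.3% and in the interaction 31.5%, with no member in any, and no member at an unadjusted p under 0.05 either.

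The passenger sly-miR156c-3p_ath and the guide sly-miR156f-p5_stu are listed as the strands of 1 precursor. The passenger made up 15.6 ± 5.75% of both strands in combination and 14.6 ± 4.57% in heat, against 37.8 ± 6.71% in drought and 42.1 ± 1.07% in control leaves (SD, n = 3 each). The 38 °C libraries, at 9.63 to 21.2%, lay below the 26 °C libraries, at 32.3 to 45.3%. The log2 ratio changed by -2.11 ± 0.38 in heat against control (limma, Benjamini-Hochberg adjusted p = 0.000881) and by -2.03 ± 0.38 in combination against control (0.00177).

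In the duplex of sly-miR157d-3p_aly with the C-start guide, the 3p strand was the larger one in all libraries. It was 76.7 ± 3.92% of both strands in combination and 82.1 ± 0.950% in heat, against 93.0 ± 1.14% in drought and 94.2 ± 2.80% in control leaves (SD, n = 3 each). No 38 °C library reached a 26 °C library. The ratio changed by -1.90 ± 0.34 in heat against control (limma, Benjamini-Hochberg adjusted p = 0.000835) and by -2.37 ± 0.34 in combination against control (0.000565), and both duplexes passed in all alternatives.

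The other 3 duplexes had smaller shifts. The 3p strand of the e precursor was 21.6 ± 4.89% at 38 °C and 34.3 ± 4.66% at 26 °C (SD, n = 6 each), with no overlap. Its ratio fell by 0.94 in 38 °C leaves with an error of 0.23 (limma, Benjamini-Hochberg adjusted p = 0.00542), and its heat against control call (-0.94, 0.0362) was lost in 7 of 16 alternatives, up to 0.121, among them those without control replicate 1 or 3, drought replicate 3, or heat replicate 2 or 3. Its combination against drought call (-0.94, 0.0481) was lost in 10 of 16, up to 0.181, and its heat against drought call (-1.13, 0.0145) without drought replicate 2 or heat replicate 3, up to 0.058. That of the d precursor was 12.6 ± 2.46% at 38 °C and 22.1 ± 5.81% at 26 °C, with overlap (-0.96 ± 0.26, adjusted p = 0.0104). For sly-miR156i-p3_nta with sly-miR156a the share was 27.2 ± 1.54% at 38 °C and 33.2 ± 3.94% at 26 °C, without overlap, and the call (-0.41 ± 0.14, adjusted p = 0.0339) was lost in 12 of 16 alternatives, among them 9 that left out 1 library, with adjusted p up to 0.132. The guide listed with sly-miR156g-p3_nta was under the filter, so its ratio was not tested.

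**Figure D3:**
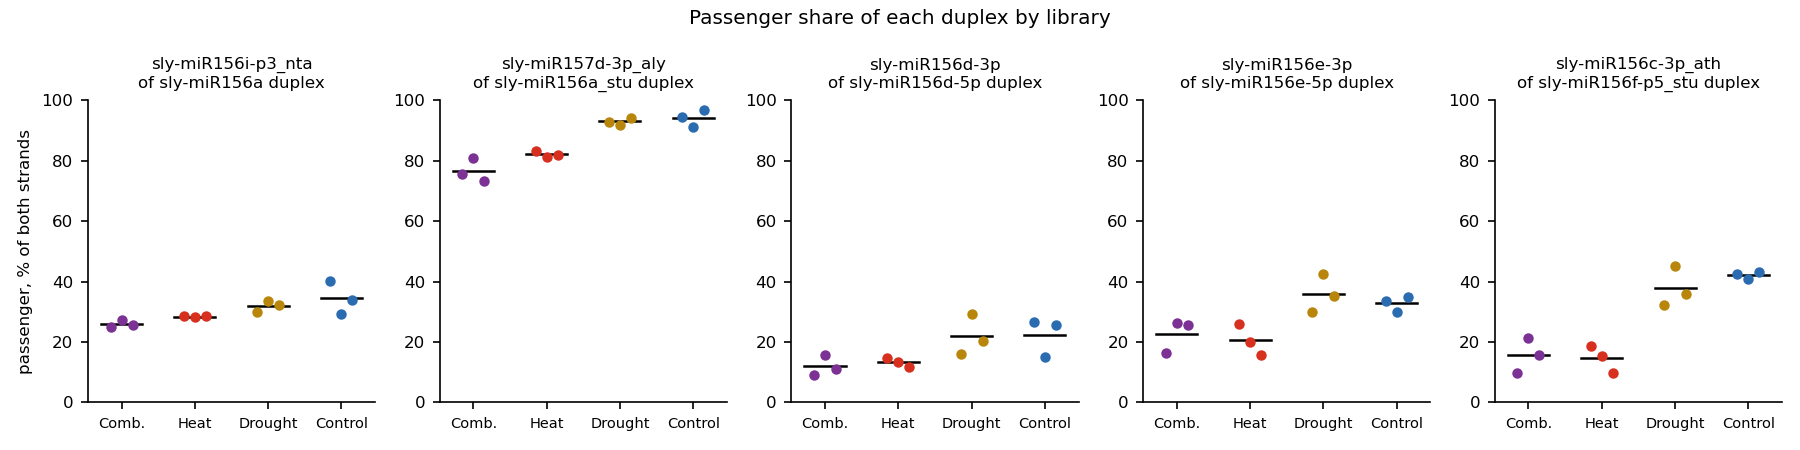
Share of the passenger (3p) strand in the summed reads of both strands, in percent, for the 5 duplexes with both strands above the filter; points are libraries, bars are means of 3. In each duplex the combination and heat means lie below the drought and control means, from 15.6% and 14.6% against 37.8% and 42.1% for c-3p with f-p5 to 25.9% and 28.4% against 31.9% and 34.5% for i-p3 with miR156a.

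Passengers of other miRNA families were lower at 38 °C as well. Of 57 tested outside miR156 and miR157, 35 were lower in heat against control with a median of -2.38, and 24 were lower in combination against control with a median of -1.28. Between 38 °C and 26 °C 35 of the 57 were lower, with a median of -1.48. Of all 419 sequences, 12.6% were lower in heat against control, 9.31% in combination against control and 12.9% between 38 °C and 26 °C. The 7 tested in the family had medians of -0.67 in heat against control, -1.01 in combination against control and -1.06 between 38 °C and 26 °C. Of 86 guides of other families tested, 8 were higher and 8 lower between 38 °C and 26 °C with a median of 0.06, beside 2 higher, 0 lower and a median of 0.40 for the 7 guides of the family. The median of all 419 sequences there was 0.03, and 6.44% of them were higher.

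Over the 12 libraries, the sequence most like sly-miR156a outside the family by Pearson correlation of log2 values was sly-miR8175_ath (r = 0.89), followed by PC-265-3p (0.876) and sly-miR159 (0.866). For sly-miR156d-5p these were sly-miR2916-p5_peu (0.913), sly-miR8175_ath (0.908) and sly-miR159 (0.836), and the correlation between sly-miR156a and sly-miR156d-5p was 0.923. The 12 values of each sequence come from the same libraries and treatments and share their scaling, so these are descriptions.

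Degradome values were read as whole reads, each worth 35.6 to 54.7 deposited units depending on the library. Libraries at 38 °C held 1407 to 3884 reads at listed sites, against 5259 to 7498 at 26 °C, so scaling matters more here than for the small RNAs. The paper reports similar raw read numbers per treatment, but a much smaller share mapped to transcripts in heat and combination than in drought and control. This difference between libraries coincides with temperature, and its effect on the sites was not tested. The fit used reads scaled by the trimmed mean of log ratios (TMM) over the listed sites, log2(scaled reads + 1) and the 196 sites with at least 10 reads over all libraries. The lists give sites found in a treatment, and a site missing from one was taken as 0 there, so a fold against it is no bound. The lists used here carried no position of a cut.

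The family's sites fell into 19 in 10 SPL transcripts, of which 12 were tested, and 23 in other transcripts, of which 13 were tested. The 17 sites under the filter, 7 of them SPL, had 1 to 9 reads summed over 12 libraries. In 8 of the 10 SPL transcripts, reads were listed at 2 separate sites of different type. One is called miR156a-type, since it was listed under sly-miR156a or sequences with its 5′ end, and the other miR156d-type, listed under sly-miR156d-5p, sly-miR156e-5p and their relatives.

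The SPL14 transcript Solyc10g078700.2.1 carried most reads. It had 301 at the miR156a-type and 44 at the miR156d-type site, so 87.2% of its reads were of the miR156a type, which was higher in 11 of 12 libraries. SPL12 Solyc05g015510.3.1 had 53 and 8 reads of the 2 types. The 3 SPL6 transcripts and TGA1 were divided more evenly, at 125 and 89 reads for Solyc05g012040.3.1, 55 and 73 for Solyc03g114850.3.1, 50 and 67 for Solyc12g038520.2.1, and 91 and 72 for TGA1 Solyc05g015840.3.1. SPL2 Solyc04g045560.3.1 had 22 reads of the miR156a type and 2 at another site. The 3 transcripts with the symbol SBP1 held few, at 9 and 5 in Solyc07g053810.3.1, 5 and 2 in Solyc10g009080.3.1, and 5 of the miR156d type alone in Solyc07g062980.3.1. Symbols are those of the deposited lists, and TGA1 there is the name of maize teosinte glume architecture, an SBP-box gene of ear development, given to a tomato transcript.

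**Figure D4:**
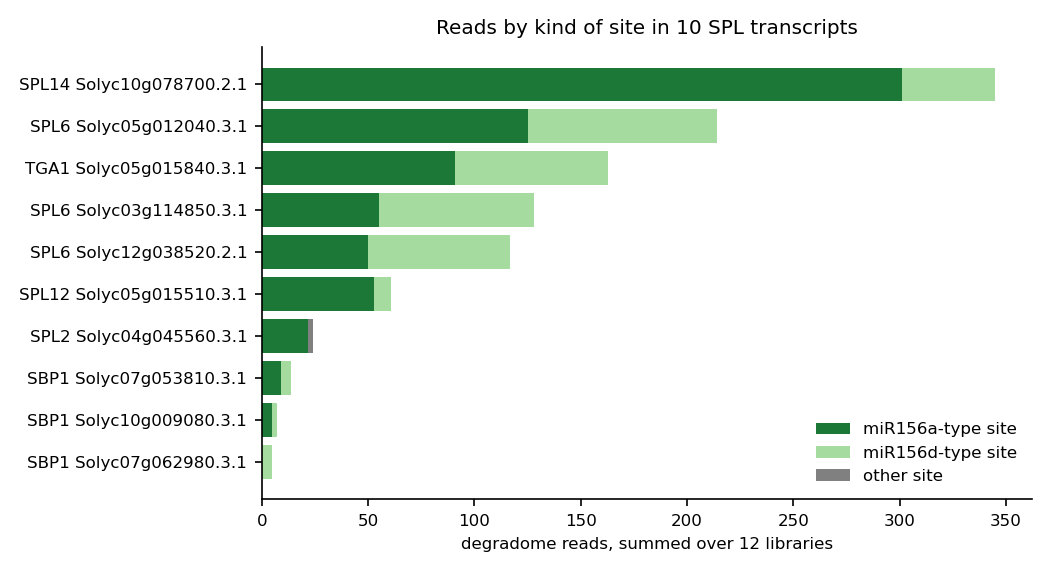
Reads summed over the 12 degradome libraries at the miR156a-type, miR156d-type and other sites of the 10 SPL transcripts; bars run from 0. SPL14 stands apart with 301 and 44 reads, while the 3 SPL6 transcripts and TGA1 hold 50 to 125 reads of the first and 67 to 89 of the second type.

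As a share of all reads at listed sites, SPL sites held 4.05 ± 1.10% in combination, 1.99 ± 0.896% in heat, 1.64 ± 0.141% in drought and 1.79 ± 0.266% in control leaves (SD, n = 3 each). As reads they were 77, 115 and 40 in combination, 53, 26 and 112 in heat, 111, 122 and 111 in drought, and 112, 98 and 101 in control libraries. The read numbers themselves were thus not higher at 38 °C, and the shares were taken over a smaller total. Neither was tested, being sums over chosen sites.

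Among the 12 tested SPL sites, TGA1 carried the calls between 38 °C and 26 °C, at both of its sites. Its miR156a-type site had 25, 21 and 8 reads in combination, 5, 3 and 13 in heat, 1, 1 and 2 in drought, and 6, 1 and 5 in control libraries. After scaling, the site had 20.3 to 41.8 reads in combination and 6.16 to 11.8 in heat, against 0.540 to 1.09 in drought and 0.676 to 4.59 in control libraries. The scaled 38 °C and 26 °C libraries did not overlap, with combination replicate 1 the highest.

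The TGA1 miR156a-type site rose by 2.77 ± 0.58 between 38 °C and 26 °C (limma, Benjamini-Hochberg adjusted p = 0.000643), and passed in every alternative, with 1.89 (0.0241) under the authors' scaling. Against drought, combination gave 4.16 ± 0.83 (0.00135), again in every alternative. Against control, combination gave 3.13 ± 0.83 (0.00971), but this was lost under the authors' scaling (2.08, adjusted p = 0.101), when only these treatments were fitted and without combination replicate 1. The heat against drought call (2.41, 0.0417) was lost in 15 of 21 alternatives, up to 0.199, among them those without any heat replicate, drought replicate 2 or 3, or combination replicate 1 or 2.

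The TGA1 miR156d-type site had 8, 14 and 7 reads in combination, 9, 2 and 15 in heat, 0, 1 and 3 in drought, and 0, 12 and 1 in control libraries. Control replicate 2 and drought replicate 3 overlapped the 38 °C libraries in reads, and after scaling control replicate 2 alone did. The site rose by 2.75 ± 0.64 between 38 °C and 26 °C (limma, Benjamini-Hochberg adjusted p = 0.00158), in every alternative, by 3.48 in combination against drought (0.0132), and by 2.84 ± 0.91 in combination against control (0.0295), which was lost in 9 of 21 alternatives, up to 0.181, among them those without any combination replicate or control replicate 1 or 3. The combination against drought call was lost under the authors' scaling, with only these treatments fitted and without drought replicate 2, up to 0.0732. In heat against drought it gave 2.67 (0.0417), lost in 17 of 21, up to 0.148, and without any of 9 libraries.

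SPL14 had lower means at 38 °C. Its miR156a-type site had 4, 14 and 1 reads in combination, 4, 6 and 23 in heat, 54, 23 and 40 in drought, and 63, 19 and 50 in control libraries. After scaling this was 9.81 ± 9.24 in combination and 13.0 ± 7.58 in heat, against 21.4 ± 8.78 in drought and 32.3 ± 17.9 in control leaves (SD, n = 3 each), with overlap. The difference of -1.28 ± 0.56 between 38 °C and 26 °C did not pass (limma, Benjamini-Hochberg adjusted p = 0.093), whereas under the authors' scaling it was -2.36 (0.00178), and combination against control was -2.84 (0.0125).

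The ratio of these 2 sites was taken within a library, on unscaled reads with 1 added to each. The scaling of a library cancels there except for the added 1, which weighs more where reads are few. The log2 ratio of TGA1 to SPL14 reads at the miR156a-type sites was 0.63 ± 1.39 at 38 °C (range -0.81 to 2.38) and -3.62 ± 0.62 at 26 °C (range -4.78 to -3.09), a difference of 4.25 (SD, n = 6 each; two-sided exact permutation test, p = 0.00216). The groups did not overlap, and the combination libraries, at 1.70 ± 1.00, had a higher mean than the heat libraries, at -0.44 ± 0.61. Over 14 alternatives the difference ran from 2.94 to 4.59. This ratio too was chosen after its values were seen.

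**Figure D5:**
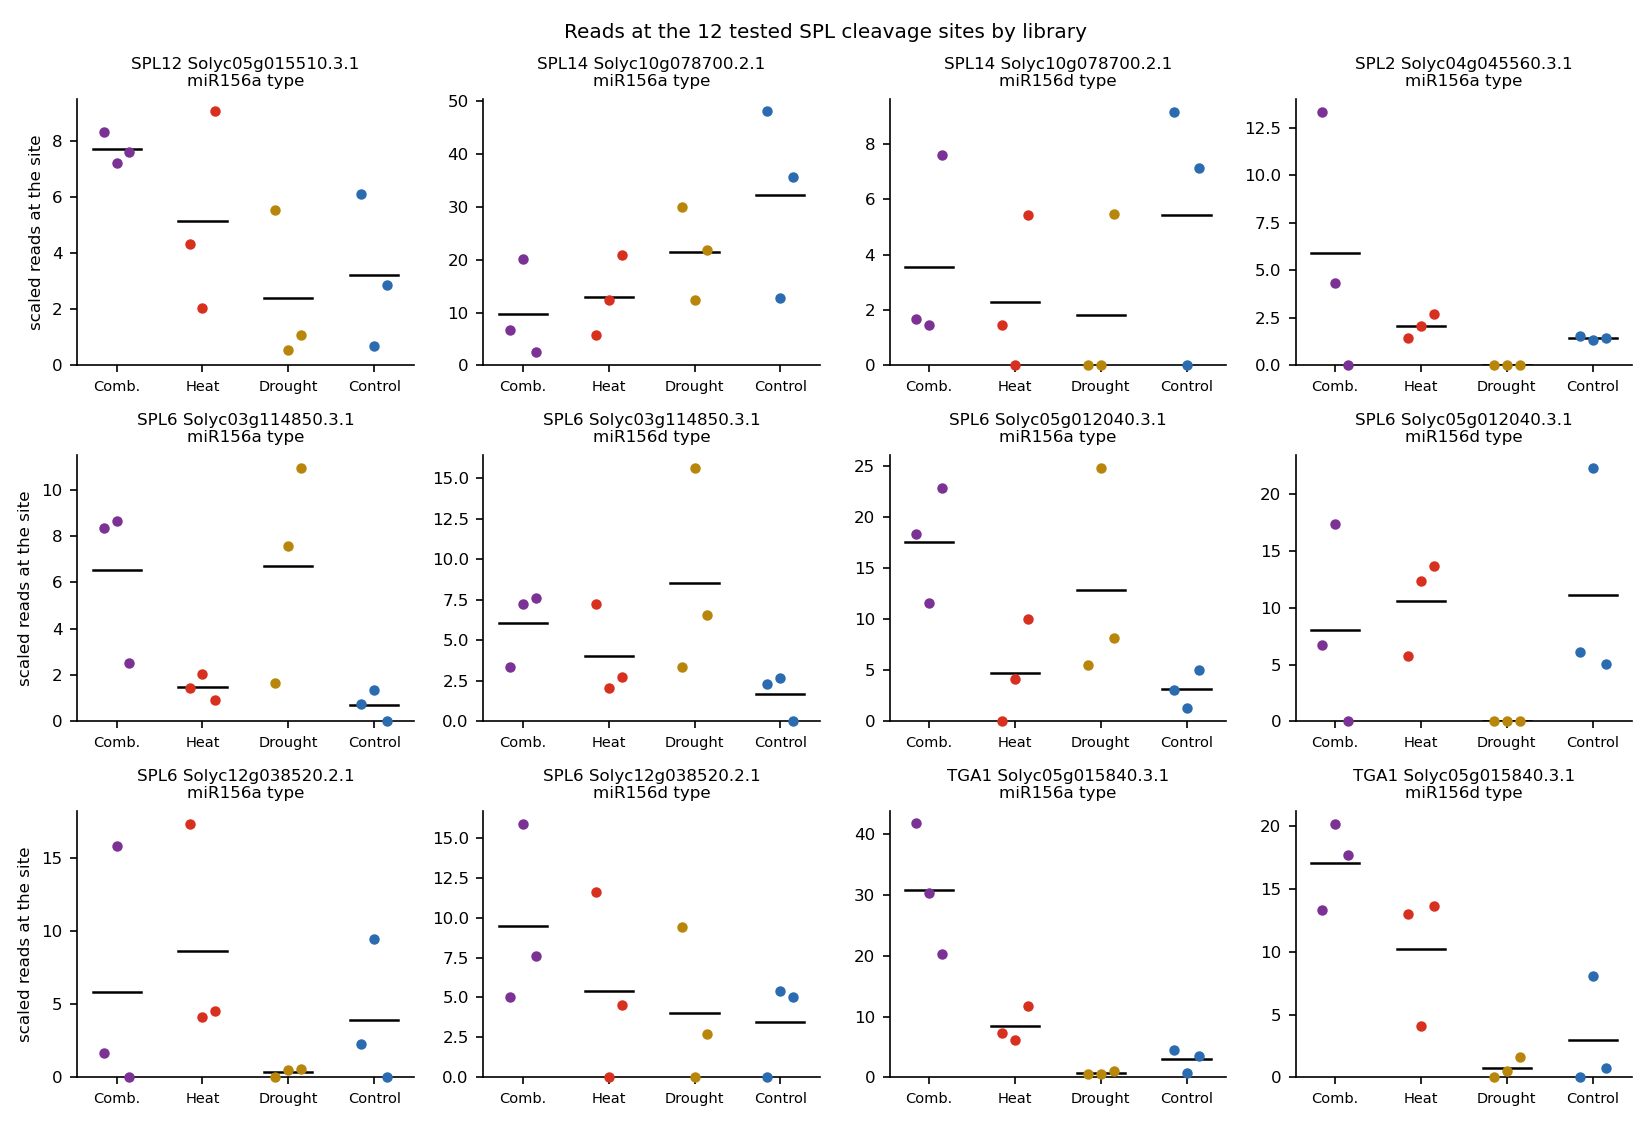
Scaled degradome reads at the 12 tested SPL sites, by treatment; points are libraries and bars are means of 3. At TGA1 the miR156a-type site averages 30.8 in combination and 8.40 in heat, against 0.730 in drought and 2.95 in control leaves, while at SPL14 the means are 9.81 in combination, 13.0 in heat, 21.4 in drought and 32.3 in control leaves.

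The remaining SPL sites were sparse and varied between replicates. At the miR156a-type site of SPL6 Solyc05g012040.3.1, combination libraries had 11, 8 and 9 reads, heat 0, 2 and 11, drought 10, 46 and 15, and control 4, 2 and 7. Its miR156d-type site had 4, 12 and 0 reads in combination, 4, 6 and 15 in heat, and 8, 33 and 7 in control libraries, and was not in the drought list. It passed in heat against drought (3.46 ± 0.96, limma, Benjamini-Hochberg adjusted p = 0.0183), a fold against a treatment taken as 0, and the call was lost in 6 of 20 alternatives, up to 0.0864, among them those without drought or heat replicate 2 or 3. Both sites of SPL6 Solyc03g114850.3.1 had most unscaled reads in drought, at 3, 14 and 20 reads and 6, 29 and 12 reads. Control had 0 to 2 and 0 to 4 reads, and combination 5, 6 and 1 and 2, 5 and 3 reads. After scaling, the miR156a-type site averaged 6.72 ± 4.70 in drought and 6.52 ± 3.45 in combination. The miR156d-type site averaged 8.52 ± 6.39 in drought and 6.05 ± 2.36 in combination (SD, n = 3 each). Neither site passed in drought against control. The other tested sites, of SPL12, SPL2, SPL6 Solyc12g038520.2.1 and the miR156d-type site of SPL14, had 0 to 17 reads per library, gave 0.12 to 1.36 between 38 °C and 26 °C and did not pass.

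Counted over sites, no member passed in drought against control, where no site of 196 did in limma and 4 members had an unadjusted p under 0.05. In heat against control 3 members passed (15.8% of all sites), none of them SPL, and in combination against control 5 (17.3%), 2 of them the TGA1 sites. Heat against drought called 5 (15.8%), 3 of them SPL, and combination against drought 3 (13.8%), 2 of them the TGA1 sites. Between 38 °C and 26 °C 9 passed, where 24.0% of all sites did, with 6 higher (9.69% of all sites) and 3 lower (14.3%). These 9 include sites that belong to the family by name alone, under sly-miR156aa_gma, and without such sites 5 passed. Combination against heat passed at 4.08% of sites and the interaction at 2.55%, with no member in either and 3 and 1 members at an unadjusted p under 0.05.

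The median change of the 12 SPL sites between 38 °C and 26 °C was 1.01, with 11 of 12 positive, beside a median of -0.40 over all 196 sites. This depended on scaling, since with the authors' scaling the SPL median was 0.21 with 7 of 12 positive, beside -0.82 over all sites. Calls are another measure than these signs (limma, Benjamini-Hochberg adjusted p under 0.05). With TMM, 19 of all 196 sites passed as higher and 28 as lower, beside 2 and 0 of the SPL sites. With the authors' scaling, 10 of all sites passed as higher and 56 as lower, beside 2 and 1 of the SPL sites.

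Of the sites outside SPL transcripts, 6 were listed under sly-miR156aa_gma, a name from soybean. Its sequence is shown beside sly-miR159, the miRNA under which 5 of those sites were listed too.
sly-miR156aa_gma: aTTGGATTgaagggagctcca
sly-miR159: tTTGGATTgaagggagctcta
From sly-miR159 it differs by T1A and T20C, and from sly-miR156a it differs at 14 of 21 bases, so it belongs to miR156 by name alone. It was found in 1 library, at 1.58 normalized reads. Its 5 tested sites therefore carry sly-miR159, whose known targets are GAMYB transcription factors of gibberellin response, and a count without them is given with the closing values.

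Of these 5 sites, 4 passed between 38 °C and 26 °C, where 24.0% of all 196 sites did. GAM1 Solyc01g090530.2.1, a MYB factor, had 6, 20 and 9 reads in combination, 1, 5 and 24 in heat, 3, 2 and 0 in drought, and 0, 1 and 6 in control libraries, with overlap. It rose by 2.77 ± 0.66 (limma, Benjamini-Hochberg adjusted p = 0.00191) in every alternative, and by 3.26 in combination against control (0.0193), lost under the authors' scaling, with only these treatments fitted, when tested alone on unlogged values and without combination replicate 2 or control replicate 1 or 2, up to 0.113. The second GAM1, Solyc06g073640.3.1, rose by 1.67 ± 0.59 (0.0364), and Solyc07g062685.1.1, with 0 or 1 read in each 38 °C library and 0 to 44 in each 26 °C library, fell by 2.56 on the log2 scale (0.0163). The second GAM1 call was lost in 10 of 18 alternatives, up to 0.436 and with 8 libraries left out singly, and that of Solyc07g062685.1.1 without control replicate 1 or 2 or drought replicate 2 or 3, up to 0.162. Solyc12g014120.2.1, the site with most reads in the family's lists at 147 to 495 per library, rose by 0.68 ± 0.24 (0.0323), and under the authors' scaling its sign turned (-0.51, adjusted p = 0.0891), while 8 libraries left out singly raised adjusted p to at most 0.09. The fifth, ACA13, had all but 4 of its 34 reads in 1 combination library and did not pass.

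Sites were listed under passenger names too, 9 in all, of which 5 were tested. ASP5 Solyc08g041870.3.1, an aspartate aminotransferase, was listed under sly-miR156a-p3_stu, which was itself under the filter. That passenger had 0 reads in every drought and every combination library. The ASP5 site had 4, 5 and 2 reads in combination, 1, 0 and 3 in heat, 13, 41 and 57 in drought, and 14, 32 and 30 in control libraries. Read for read no 38 °C library reached a 26 °C library, though after scaling combination replicate 2 and drought replicate 1 were level. It changed by -2.22 ± 0.58 between 38 °C and 26 °C (limma, Benjamini-Hochberg adjusted p = 0.00447) and by -3.12 ± 0.83 in heat against control (0.00918), which became 0.0681 without heat replicate 2.

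A second site under sly-miR156a-p3_stu moved the other way. Solyc10g081570.2.1 had 8, 11 and 1 reads in combination, 6, 7 and 5 in heat, 0, 10 and 2 in drought, and 2, 0 and 0 in control libraries. It rose by 2.39 ± 0.66 between 38 °C and 26 °C (limma, Benjamini-Hochberg adjusted p = 0.00688), with drought replicate 2 among the 38 °C libraries, and reached an adjusted p of 0.0592 under the authors' scaling. Solyc12g008730.2.1, listed under sly-miR156e-5p, had 2, 12 and 10 reads in drought and 21, 10 and 1 in control libraries and was not in the 38 °C lists, and gave -2.42 ± 0.63 (0.00447) against treatments taken as 0, in every alternative. The calls of both against control were lost in 10 to 14 of 20 or 21 alternatives, most of them with 1 library left out, with adjusted p up to 0.223. The remaining tested sites, CLPT1, KIN, RPL15, SEC5A and LPPB, gave -1.13 to -0.77 and did not pass.

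Further along the same pathway, the miR172 family was described from a list. Of its 8 guides tested, 0 passed in any comparison, and their median between 38 °C and 26 °C was -0.30. All 4 of its passengers tested were lower in heat against control, with a median of -3.04, where 12.6% of all 419 sequences were lower. All 4 were lower again between 38 °C and 26 °C, with a median of -2.79, where 12.9% of all sequences were. The transcripts cut by miR172, mostly AP2-type transcription factors that act late in the phase change, had 14 tested sites, of which 3 fell between 38 °C and 26 °C, where 14.3% of all 196 sites were lower, so the count lay near that share. These were AP2 Solyc09g007260.3.1 at -2.47, RAP2-7 Solyc10g084340.2.1 at -3.15 and RAP2-7 Solyc11g072600.2.1 at -3.20 (limma, Benjamini-Hochberg adjusted p of 0.00965, 0.000532 and 0.000425). Of the 4 tested sites of the miR162, miR168 and miR403 list, which holds transcripts of the small RNA machinery, the site of AGO2 Solyc02g069260.3.1 under miR403 rose, by 0.92 ± 0.29 (0.0202), where 9.69% of all sites were higher.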

How the data were processed

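Small RNA and degradome libraries of 12 leaf samples each were grouped by GEO's treatment labels; circular RNA libraries were not used here. Per the study's methods, the authors removed Rfam, repeat and Solanaceae matches from small RNA reads, aligned the rest to plant miRNAs of miRBase and deposited a signal per sequence, normalized by a formula not given in the sources used here. The deposited degradome signal is reads per cleavage site times 1 factor per library, from CleaveLand and Targetfinder on ITAG transcripts, listed per treatment, and 91.6 to 96.9% of its values were whole multiples of 1 read within 0.01 reads. Rows of a transcript with equal reads in every library were taken as 1 site. Precursor coordinates were matched by sequence to the study's list. The submitters' notes also name Bowtie2, FastQC, TopHat and cutadapt.

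Each assay's 12 libraries entered one fit, in which every treatment had a mean of its own (R 4.3.3, limma 3.58.1), with a pseudocount of 1, Benjamini-Hochberg adjustment per comparison and a threshold of 0.05, two-sided; tables were made with Python 3.11.15 and pandas 2.3.3. The fits were tested on simulated data with 4-fold changes in heat against control. They called 39 of 60 changed sequences, 21 of 22 changed duplex ratios and 9 of 49 changed sites, with 1 false call in each. The site fit thus missed most 4-fold changes, so sites that did not pass are not shown to be unchanged. TMM trims were 0.3 and 0.05. The 8 comparisons were the 6 pairs of treatments, the interaction and 38 °C against 26 °C, and they share libraries. All member sequences and SPL sites, and tested non-SPL sites, were eligible to be named, with other members given as counts, and the 3 sequences of other families most like 2 guides were named by correlation. Members and lists were chosen with earlier results of these data known. Alternatives were another scaling, pseudocount, filter, test or set of samples, the replicate block, and each replicate left out; the counts without sly-miR156aa_gma sites and the 3 ratio tests were chosen after seeing the data. One transcript is not reported here.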

Additional observations from a re-analysis of the deposited data

How the results depend on the processing

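Of the alternatives for the results named, 405 kept direction and call and 63 lost the call for sequences, 225 and 31 for duplex ratios, and 347 and 145 for sites, where 3 reversed. Those 3 were at Solyc12g014120.2.1: -0.031 in heat against drought and -0.51 between 38 °C and 26 °C under the authors' scaling, and -0.073 in heat against drought under an unadjusted comparison of equal variances on the deposited values. The cause was not tested.

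Counts of members called moved as follows. For sequences, fitting only the treatments compared gave 2 in combination against control, and the unadjusted comparison gave 6 in heat against drought, 7 in combination against drought and 1 in combination against heat. For sites in drought against control, the authors' scaling and the unadjusted comparison gave 1 each. For sites in heat against control, no filter, only sites listed in both treatments, only the treatments compared and a pseudocount of 5 gave 1 each. In combination against control, sites numbered 2 with no filter and 0 with only the treatments compared. In heat against drought, they numbered 3 with the authors' scaling, no filter, total scaling or the replicate block, 2 with only sites listed in both, a pseudocount of 5 or the unadjusted comparison, and 1 with only the treatments compared. In combination against drought they numbered 5 with the authors' or total scaling and 1 with only the treatments compared, and in combination against heat 1 with the unadjusted comparison. Between 38 °C and 26 °C, 9 of the 25 tested member sites passed. Leaving out the 5 tested sly-miR156aa_gma sites gave 5 calls, where 24.0% of all 196 sites passed, so the count then lay near that share.

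With each replicate left out in turn, sequences called ranged from 2 to 4 in combination against control, 1 to 5 in heat against drought, 2 to 4 in combination against drought and 4 to 7 between 38 °C and 26 °C, and stayed at 3 in heat against control. Duplex ratios ranged from 2 to 5 in heat against control, 2 to 4 in combination against control, 2 to 3 in heat against drought, 2 to 4 in combination against drought and 4 to 5 between 38 °C and 26 °C. Sites ranged from 0 to 3 in heat against control, 1 to 5 in combination against control, 0 to 7 in heat against drought, 1 to 6 in combination against drought and 6 to 9 between 38 °C and 26 °C. Sequence counts moved by over 1.5 times without combination or control replicate 3 (2 in combination against control), drought replicate 3 (4 between 38 °C and 26 °C), combination replicate 1 (5 in heat against drought) and drought replicate 2 or 3 or heat replicate 2 (1 there). Site counts fell to 0 without heat replicate 2 in both heat comparisons and without drought replicate 3 in heat against drought, and to 1 without combination replicate 1 or 2 or control replicate 1 in combination against control and without drought replicate 2 in combination against drought.

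Treatments share replicate numbers. Deviations of same-numbered libraries correlated at -0.379 to 0.381 for small RNA and -0.205 to 0.246 for the degradome, and 0 libraries correlated best with their own number. No pairing by number was thus seen, but with 3 replicates per treatment these correlations cannot exclude one. With the replicate block, heat against control called 3 sequences, 2 duplex ratios and 3 sites, combination against control 3, 2 and 5, and 38 °C against 26 °C 6, 4 and 8.

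Degradome depth is low: SPL sites held 26 to 122 reads per library, many site values are under 10 reads, and the 38 °C libraries held fewer reads at listed sites. P-values of the limma fits measure the spread between 3 replicates per treatment. The exact permutation tests of ratios instead shuffled libraries across all treatments, with heat pooled with combination and drought with control. Their p-values therefore do not measure the spread between replicates of a treatment.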
